A study of Mus musculus with 6 samples.

Results

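Cholesterol synthesis and sterol handling were followed gene by gene in 3 mouse lines. By their labels they derive from melan-a, melanocytes of strain C57BL/6J that were immortalized in culture. The genes were 31 chosen by their role in the pathway: enzymes that build cholesterol, proteins that sense sterols and control the enzymes, proteins that move sterols through the cell, and transporters and receptors of efflux. Of these, 26 had a probe set on the array, 1 each, out of 19505 genes that its probe sets name. Acat2, Tm7sf2, Srebf1, Soat1 and Nr1h2 were not analysed here. Each line was hybridised to 2 Affymetrix Clariom S arrays. The line mVec carries a control vector, is titled CD516B2 and is described as a melanocyte line. K641E, an activating substitution in Kit, the receptor for stem cell factor, is carried by mKitK641E(T) and by mKitK641E(PT), shortened to T and PT, which are described as transformed melanoma. Their titles are C3# for T and hi exp for PT, and the sources used here do not say what T, PT and these titles stand for. All 3 lines were grown untreated in RPMI with 10% serum, itself a source of lipoprotein cholesterol. Each group is 1 line, and nothing says that its arrays came from separate cultures, so that errors and p-values cover no more than array-to-array spread within a line, which may be technical.

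Cholesterol is built from acetyl-CoA through mevalonate, isoprenoids, squalene and lanosterol, and each later step trims or rearranges the sterol ring. When sterols in the endoplasmic reticulum run low, Scap escorts the transcription factors SREBP to the Golgi for activation, and they switch on the enzymes of the whole route. When sterols are plentiful, Insig1 and Insig2 hold Scap back, while oxysterols activate the liver X receptors, which switch on efflux through Abca1 and Abcg1. Cholesterol that enters with lipoproteins leaves the lysosome through Npc2 and Npc1. In melanocytes and other cells the route also supplies isoprenoid anchors for small GTPases.

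The promoters of SREBP targets are known for a sterol regulatory element beside boxes for NF-Y and Sp1, so the 250 bases before the RefSeq start sites (GRCm38.p6) were searched on both strands. The RefSeq promoter table held 20 of the 26 measured genes, with 27 promoters. The sterol element TCACNCCAC was found in 1 of these 27, that of Hmgcs1, and in 1.05% of the 32851 promoters of the table. Only these letters were counted, so a sterol element that differs from them would be missed. The NF-Y box CCAAT was in 17 of the 27 and in 33.8% of all promoters. The Sp1 box GGGCGG was in 20 of the 27 and in 32.7% of all promoters, and the E-box CACGTG in 6 of the 27 and in 6.02%. No matches of different motifs overlapped in these promoters (0 pairs), and base composition was not matched. Such matches describe letters, not bound sites.

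Shown are 4 promoters. That of Hmgcs1 is the only one with a match to the sterol element as searched. Lss and Msmo1 are 2 enzymes with large rises, and Insig1 is a sterol sensor that fell. These last 3 were picked after their values were seen. The 4 promoters run 5′ to 3′ toward the start site, from chr13:119690101-119690350 (plus strand), chr10:76531355-76531604 (plus), chr8:64733579-64733828 (minus) and chr5:28071162-28071411 (plus). Capitals mark the sterol element and each NF-Y box, which reads ATTGG where it lies on the opposite strand.
Hmgcs1: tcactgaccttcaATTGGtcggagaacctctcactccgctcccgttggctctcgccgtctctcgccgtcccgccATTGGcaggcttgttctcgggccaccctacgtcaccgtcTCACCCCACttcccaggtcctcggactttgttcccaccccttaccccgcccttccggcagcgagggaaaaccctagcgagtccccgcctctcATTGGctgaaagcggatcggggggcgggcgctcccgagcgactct
Lss: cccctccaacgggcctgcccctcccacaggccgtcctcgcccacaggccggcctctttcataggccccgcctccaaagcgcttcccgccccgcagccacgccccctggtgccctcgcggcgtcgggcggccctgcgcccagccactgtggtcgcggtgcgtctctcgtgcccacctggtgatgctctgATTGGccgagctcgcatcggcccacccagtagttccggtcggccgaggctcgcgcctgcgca
Msmo1: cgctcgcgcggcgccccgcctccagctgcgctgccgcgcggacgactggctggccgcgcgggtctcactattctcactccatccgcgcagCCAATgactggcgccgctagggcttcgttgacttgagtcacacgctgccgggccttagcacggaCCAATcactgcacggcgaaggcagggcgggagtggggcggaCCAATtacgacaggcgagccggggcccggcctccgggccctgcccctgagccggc
Insig1: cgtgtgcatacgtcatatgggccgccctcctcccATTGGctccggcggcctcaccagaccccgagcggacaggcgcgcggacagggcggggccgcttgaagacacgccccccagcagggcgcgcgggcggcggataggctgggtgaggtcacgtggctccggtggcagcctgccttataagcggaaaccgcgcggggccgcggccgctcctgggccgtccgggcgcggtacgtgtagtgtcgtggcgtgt
In Hmgcs1 the sterol element begins 137 bases before the start, between NF-Y boxes at 176 and 45 bases. Msmo1 has 3 NF-Y boxes and Lss and Insig1 1 each. Of these 4 genes, Lss and Msmo1 were higher in both Kit lines and Insig1 lower in both, while Hmgcs1 was lower in PT, as given below with each gene.

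A gene is called above background here when its deposited log2 value exceeds the 95th percentile of the negative-control probe sets of the same array, which lay between 8.74 and 9.16. Of the 22206 gene probe sets, 29.0% to 32.6% were above the limit of their array. On both arrays of a line, 19 of the 26 genes were above it in mVec, 19 in T and 16 in PT. The matching shares of all gene probe sets were 30.7% in mVec, 30.7% in T and 28.8% in PT. Mvk, Pmvk, Mvd, Abcg1 and Nr1h3 stayed at background throughout the 6 arrays. Where a line was at background, its limit stands in for its level and the fold is written "at least". Where both lines were, no fold is given. Kit itself, the gene the lines are labelled for, was at background on all arrays, at 4.68 and 4.97 in mVec, 4.53 and 5.18 in T, and 4.53 and 3.84 in PT. Neither difference from mVec passed the test (0.03 ± 0.30, adjusted p = 0.956 in T, and -0.63 ± 0.30, adjusted p = 0.141 in PT). The sources used here do not say which part of Kit the construct carries or the probes read, so the labels have no check from this gene, and T, PT and mVec stand for the lines so labelled in every direction below. Of 14 melanocyte markers, 13 were at background on all arrays, Tyr, Dct, Sox10 and Kit among them. Mitf was just above it on the 2 T arrays, at 9.01 and 9.10, and close below it in PT, at 8.99 and 8.74. Its difference between T and PT did not pass the test (0.19 ± 0.20, adjusted p = 0.637). These markers do not bear out the melanocyte label of the lines. Fibroblast markers differed between the lines: 8 of 11 were above background on both arrays in mVec, 5 in T and 3 in PT. Their summed level was 18.45 to 18.58 on the log2 scale in mVec, 16.06 to 16.16 in T and 15.82 to 16.09 in PT, and the part of this difference in the values below was not tested. Among the fibroblast markers, Col1a2 went the other way, at 5.06 and 5.08 in mVec. It read 9.23 and 9.22 in T and 9.12 and 9.33 in PT. None of 11 macrophage markers was above background in any line (0 in each). Of 10 adipocyte and hepatocyte markers, Fabp4 was above it, in mVec, and 0 in T and PT. In bulk RNA, fewer cells of a type and less RNA per cell cannot be told apart.

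**Figure D1:**
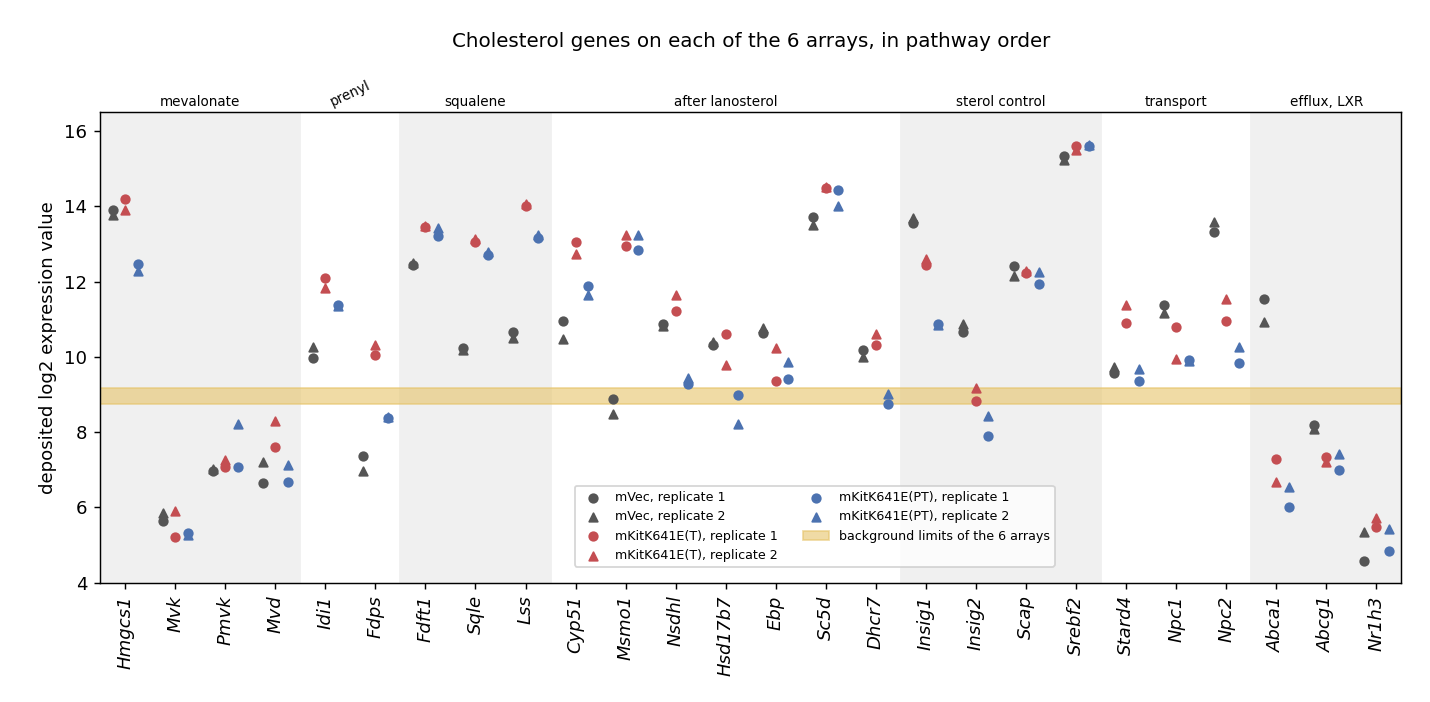
Deposited log2 values of the 26 measured genes on each of the 6 arrays, in pathway order. Circles are replicate 1 and triangles replicate 2, and the yellow band spans the background limits of the arrays (8.74 to 9.16). Squalene-stage enzymes sit higher in both Kit lines than in mVec, while Insig1, Insig2, Npc2 and Abca1 sit lower.

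Against mVec, the enzymes of the middle of the route, from Idi1 to Msmo1, were higher in both Kit lines, and Insig1, Insig2, the lysosomal carrier Npc2 and the efflux transporter Abca1 were lower. Npc1 was also called lower in both, a call that in T was lost under 7 of 14 alternatives. In T, 9 of the 16 measured enzymes were called higher and 1 lower, and of the 10 other genes 1 was called higher and 6 lower. In PT, 7 enzymes were called higher and 5 lower, and of the others 0 were called higher, also at an unadjusted p under 0.05 in limma (0 of 10), and 6 lower. A call is a limma adjusted p under 0.05 over all 22206 gene probe sets. Between T and mVec, 32.4% of all probe sets were called, 16.9% higher and 15.5% lower, and among the 7836 above background on both arrays of a line the shares were 36.6% and 27.4%. Between PT and mVec, 35.9% were called, 17.9% higher and 17.99% lower, and 37.2% and 32.0% among those above background. The enzyme shares were 56.2% higher and 6.25% lower in T. In PT they were 43.8% and 31.2%, near the shares above background, though only 13 of the 16 enzymes are among those probe sets. The median log2 difference of the enzymes was 0.94 in T and 0.63 in PT, and that of the other genes was -0.88 in T and -1.15 in PT. Over all probe sets the median was 0.01 in T and 0.08 in PT.

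Over the 26 genes, T had 10 higher and 7 lower (38.5% and 26.9%), near the shares among probe sets above background. PT had 7 higher and 11 lower (26.9% and 42.3%). Only 21 of the 26 genes are among the probe sets above background, so these shares are not over like sets. Of all calls, 52.3% were higher in T and 49.9% in PT. Centring the arrays on their medians raised the differences by 0.18 in T and 0.19 in PT and gave shares of 62.3% and 60.3%. Without either mVec array, or with a minimum log2 difference of 1, the count of genes lower in T was 4. Both comparisons use the same mVec arrays and are not independent.

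At the mevalonate stage, the transcript levels were mostly low or differed between the Kit lines. Hmgcs1, which makes HMG-CoA at the entry of the route, read 13.90 and 13.77 in mVec, 14.19 and 13.91 in T, and 12.48 and 12.28 in PT. The PT arrays were lower than all others, and those of T and mVec lay close together. Hmgcs1 fell by 1.46 ± 0.21 (standard error of the limma fit) in PT, which is 2.75-fold (adjusted p = 0.000355), and its difference in T was 0.21 ± 0.21 (adjusted p = 0.527). The mevalonate kinase Mvk and the phosphomevalonate kinase Pmvk were at background, with differences from mVec between -0.44 and 0.65 that did not pass the test. Pmvk in PT passed with quantile normalization (1.04, adjusted p = 0.0233) and without PT replicate 1 (1.23, adjusted p = 0.00693). Mvd, the decarboxylase that yields isopentenyl diphosphate, read 6.64 and 7.21 in mVec, 7.59 and 8.29 in T, and 6.67 and 7.14 in PT. It was called higher in T (1.02 ± 0.30, adjusted p = 0.0279) with every array at background, a call that needed T replicate 2 (0.67 without it, adjusted p = 0.194) and mVec replicate 1 (0.73 without it, adjusted p = 0.205).

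The next enzymes, which make the isoprenoid building blocks, were both higher in each Kit line. Idi1, the isomerase of isopentenyl diphosphate, read 9.97 and 10.27 in mVec, 12.09 and 11.84 in T, and 11.38 and 11.35 in PT. All 4 Kit arrays lay above both mVec arrays. The rise was 1.84 ± 0.21 in T (3.59-fold, adjusted p = 0.000101) and 1.24 ± 0.21 in PT (2.37-fold, adjusted p = 0.0011). Fdps, which joins isoprenes into farnesyl diphosphate, read 7.37 and 6.95 in mVec, 10.04 and 10.32 in T, and 8.38 and 8.39 in PT. The T arrays were the only ones above background, at least 2.26-fold over mVec (3.02 ± 0.23, adjusted p = 5.47e-06). In PT it was called higher (1.22 ± 0.23, adjusted p = 0.00169) with both lines at background.

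The squalene stage commits the route to sterols, and all 3 of its enzymes were higher in both Kit lines. Fdft1, squalene synthase, read 12.45 and 12.50 in mVec, 13.45 and 13.48 in T, and 13.21 and 13.43 in PT. The rise was 0.995 ± 0.20 in T (1.99-fold, adjusted p = 0.00347) and 0.85 ± 0.20 in PT (1.80-fold, adjusted p = 0.0075). The PT call was lost without PT replicate 2 (0.74, adjusted p = 0.0541) or mVec replicate 1 (0.82, adjusted p = 0.0545). Sqle, the epoxidase that adds the first oxygen and a control point of the route, read 10.24 and 10.20 in mVec, 13.06 and 13.13 in T, and 12.70 and 12.80 in PT. The gap between Kit and vector arrays was far wider than that between arrays of a line. It was 7.36-fold in T (2.88 ± 0.20, adjusted p = 3.13e-06) and 5.79-fold in PT (2.53 ± 0.20, adjusted p = 4.93e-06). Lss, which folds squalene epoxide into lanosterol, read 10.65 and 10.50 in mVec, 14.00 and 14.07 in T, and 13.15 and 13.23 in PT. T was highest, PT between, and mVec lowest, with no overlap. The rise was 11.01-fold in T (3.46 ± 0.20, adjusted p = 1.12e-06) and 6.12-fold in PT (2.61 ± 0.20, adjusted p = 4.31e-06).

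After lanosterol the enzymes went in different directions. Cyp51, the demethylase that acts first on lanosterol, read 10.94 and 10.48 in mVec, 13.04 and 12.73 in T, and 11.89 and 11.65 in PT. It rose by 2.17 ± 0.24 in T (4.52-fold, adjusted p = 7.04e-05) and by 1.06 ± 0.24 in PT (2.08-fold, adjusted p = 0.00585), and the PT call was lost without mVec replicate 2 (0.83, adjusted p = 0.0656). Msmo1, the methyl sterol oxidase, read 8.89 and 8.48 in mVec, which is background, 12.95 and 13.25 in T, and 12.83 and 13.23 in PT. The T and PT arrays overlapped, and both lines stood far above mVec. The rise was at least 17.1-fold in T (4.42 ± 0.24, adjusted p = 9.26e-07) and at least 16.3-fold in PT (4.35 ± 0.24, adjusted p = 6.36e-07). Sc5d, the desaturase near the end of the route, read 13.71 and 13.51 in mVec, 14.50 and 14.51 in T, and 14.45 and 14.00 in PT. It was called higher in T (0.89 ± 0.22, 1.86-fold, adjusted p = 0.012), a call lost without mVec replicate 2 (0.79, adjusted p = 0.0922), and its value in PT was 0.61 ± 0.22 (adjusted p = 0.0619). The PT value passed the test with centred arrays (0.80, adjusted p = 0.0167), among probe sets above background (0.0196), with a variance trend in the fit (0.00947) and without PT replicate 2 (0.83, adjusted p = 0.0386).

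In the same stage, 4 enzymes were called lower in PT. Nsdhl, a sterol dehydrogenase that works with Msmo1, read 10.87 and 10.83 in mVec, 11.23 and 11.65 in T, and 9.29 and 9.43 in PT. It fell by 1.49 ± 0.22 in PT (2.81-fold, adjusted p = 0.000389), and its T value was 0.59 ± 0.22 (adjusted p = 0.0691). The T value passed the test when arrays were centred (0.77, adjusted p = 0.0249), among probe sets above background (adjusted p = 0.0208) and without T replicate 1 (0.80, adjusted p = 0.034). Hsd17b7, the ketosterol reductase of that complex, read 10.32 and 10.39 in mVec, 10.62 and 9.79 in T, and 8.99 and 8.22 in PT. The T arrays straddled those of mVec, and PT was at background, at least 2.53-fold lower than mVec (-1.75 ± 0.33, adjusted p = 0.0018). Dhcr7, the last reductase, read 10.18 and 10.00 in mVec, 10.32 and 10.62 in T, and 8.74 and 9.00 in PT, where 1 of the 2 arrays was above background. It fell by 1.22 ± 0.22 in PT (2.33-fold, adjusted p = 0.0014), and its T value was 0.38 ± 0.22 (adjusted p = 0.244).

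Ebp, the sterol isomerase, was the enzyme called lower in T as well. It read 10.63 and 10.78 in mVec, 9.36 and 10.23 in T, and 9.42 and 9.86 in PT, with differences of -0.91 ± 0.30 in T (adjusted p = 0.0433) and -1.07 ± 0.30 in PT (adjusted p = 0.0189). All Kit arrays were below the mVec arrays, but the T arrays were far apart. Without T replicate 1 the T difference was -0.47 (adjusted p = 0.244). The T call was also lost without mVec replicate 1 or 2, without either PT array (0.0556 each), in a fit of the 4 arrays compared (0.0556) and with centred arrays (0.102). The PT call was lost without PT replicate 1 (adjusted p = 0.139), mVec replicate 1 (0.0582) or mVec replicate 2 (0.0956).

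**Figure D2:**
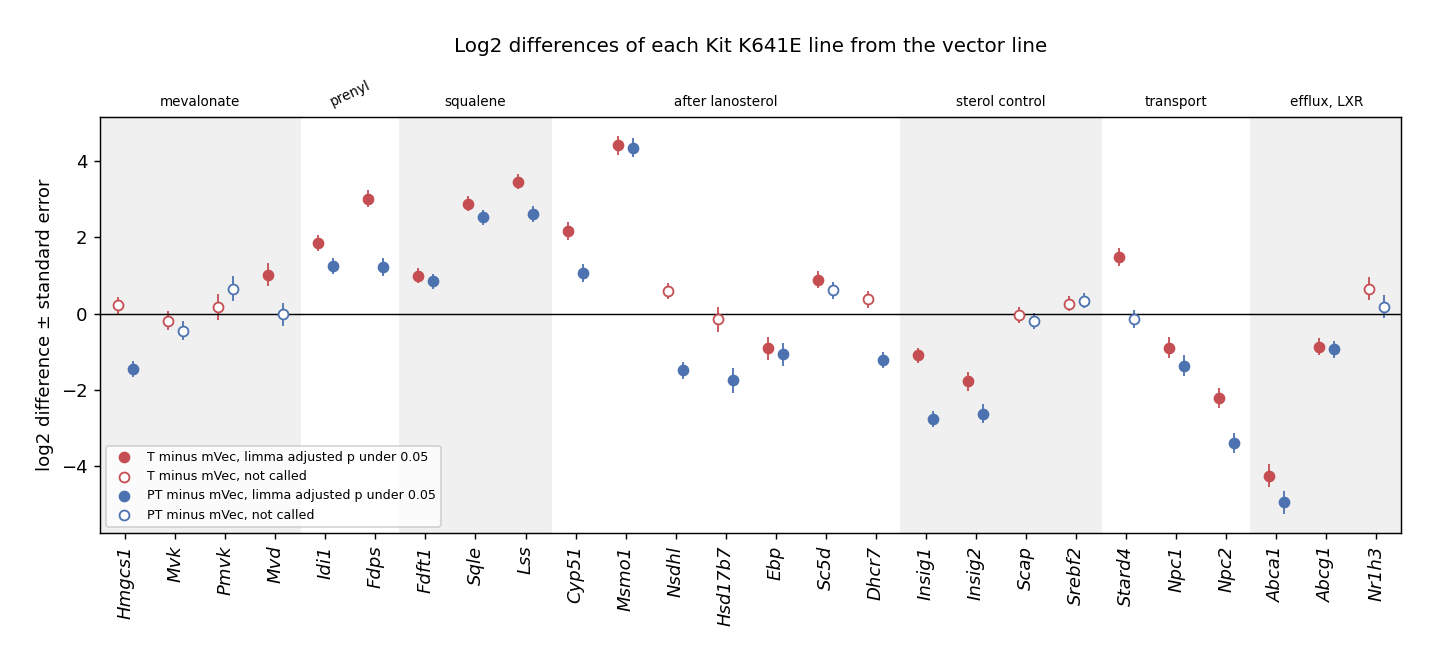
Log2 differences of T (red) and PT (blue) from mVec for the 26 measured genes in pathway order, with standard errors of the limma fit. Filled points passed the test and open points did not. From Idi1 to Msmo1 both lines are above 0, and Hmgcs1, Nsdhl, Hsd17b7 and Dhcr7 are below 0 and filled for PT alone.

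Of the sterol control genes, both Insig genes were lower in the Kit lines, and the values of Scap and Srebf2 did not pass the test. Insig1, which retains Scap in the endoplasmic reticulum and is itself an SREBP target, read 13.57 and 13.68 in mVec, 12.44 and 12.61 in T, and 10.88 and 10.84 in PT. The 3 lines formed separate steps, with mVec highest and PT lowest. Insig1 fell by 1.10 ± 0.20 in T (2.14-fold, adjusted p = 0.00181) and by 2.77 ± 0.20 in PT (6.81-fold, adjusted p = 3.06e-06). Insig2, its homologue, which is not driven by SREBP in the same way, read 10.67 and 10.88 in mVec, 8.83 and 9.17 in T, and 7.89 and 8.42 in PT. In T, where 1 of the 2 arrays was above background, it was 3.42-fold lower (-1.77 ± 0.25, adjusted p = 0.000338). In PT it was at least 3.39-fold lower (-2.62 ± 0.25, adjusted p = 1.84e-05). The escort Scap read 12.43 and 12.16 in mVec, 12.23 and 12.28 in T, and 11.94 and 12.26 in PT, overlapping in all comparisons. Srebf2, the SREBP that favours cholesterol genes, was bright in every line, at 15.35 and 15.23 in mVec, 15.59 and 15.49 in T, and 15.60 and 15.64 in PT. Its differences were 0.25 ± 0.20 in T (adjusted p = 0.403) and 0.33 ± 0.20 in PT (adjusted p = 0.25), and the PT value passed with a variance trend in the fit (adjusted p = 0.0457).

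Among transport proteins, the lysosomal pair was lower in the Kit lines. Npc2, which takes cholesterol up inside the lysosome and hands it to Npc1, read 13.31 and 13.59 in mVec, 10.96 and 11.53 in T, and 9.83 and 10.28 in PT. The lines did not overlap, and Npc2 fell by 2.21 ± 0.26 in T (4.62-fold, adjusted p = 0.000123) and by 3.39 ± 0.26 in PT (10.5-fold, adjusted p = 5.01e-06). Npc1, the membrane exporter, read 11.37 and 11.16 in mVec, 10.81 and 9.95 in T, and 9.91 and 9.89 in PT. It fell by 1.36 ± 0.28 in PT (2.57-fold, adjusted p = 0.00341). In T the difference was -0.89 ± 0.28 (adjusted p = 0.0358), and it was -0.46 without T replicate 2 (adjusted p = 0.224). That T call was lost as well without mVec replicate 1 or 2, without either PT array (0.0587 each), in the fit of 4 arrays (0.0587) and with centred arrays (0.0784). Stard4, a carrier of cholesterol between membranes and an SREBP target, read 9.58 and 9.72 in mVec, 10.91 and 11.37 in T, and 9.35 and 9.68 in PT. T stood above the others, by 1.49 ± 0.24 over mVec (2.81-fold, adjusted p = 0.000751), and PT overlapped mVec (-0.14 ± 0.24, adjusted p = 0.729).

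The efflux gene Abca1, which loads cholesterol onto apolipoproteins, was above background in mVec alone. It read 11.54 and 10.94 in mVec, against 7.30 and 6.67 in T and 6.02 and 6.55 in PT. The fall was at least 5.30-fold in T (-4.25 ± 0.31, adjusted p = 4.29e-06) and at least 4.68-fold in PT (-4.95 ± 0.31, adjusted p = 1.13e-06). The bound is smaller in PT because the limits of its arrays are higher. Abcg1, which passes cholesterol to lipoprotein particles, was at background everywhere, with 8.20 and 8.09 in mVec, 7.33 and 7.22 in T, and 6.998 and 7.42 in PT. It was called lower in both lines (-0.87 ± 0.22, adjusted p = 0.0121 in T, and -0.94 ± 0.22, adjusted p = 0.00707 in PT), and no fold is given. Leaving out T replicate 2 ended the T call (adjusted p = 0.0577), as did leaving out either mVec array (0.0812 and 0.0501). The PT call was lost without PT replicate 1 (0.0614), without mVec replicate 1 (0.0545) and with quantile normalization (-0.54, adjusted p = 0.0741). Nr1h3, the liver X receptor measured, was at background, between 4.56 and 5.73 on the 6 arrays, and its differences from mVec did not pass the test, except in T without mVec replicate 2 (1.04, adjusted p = 0.0432).

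Compared directly, T was higher than PT for every gene that passed the test. Of the 26 genes, 10 were called higher in T and 0 lower, with a median difference of 0.65 against -0.04 over all probe sets. Of all probe sets, 8.36% were called in this comparison, 5.67% higher and 2.70% lower in T, and 12.3% and 5.68% among those above background. By limma at an unadjusted p under 0.05, 0 of the 26 were lower in T. The 10 genes were 7 enzymes, Hmgcs1, Fdps, Lss, Cyp51, Nsdhl, Hsd17b7 and Dhcr7, with Insig1, Stard4 and Npc2. Since both differences from mVec use the same mVec arrays, this comparison is also the test of whether those differences differ.

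Nsdhl was 4.23-fold higher in T (2.08 ± 0.22, adjusted p = 0.00127). Fdps was at least 2.24-fold higher (1.80 ± 0.23, adjusted p = 0.00238), Hmgcs1 3.19-fold (1.67 ± 0.21, adjusted p = 0.00242) and Dhcr7 3.03-fold (1.60 ± 0.22, adjusted p = 0.00333). Insig1 was 3.18-fold higher in T than in PT (1.67 ± 0.20, adjusted p = 0.00203) and Stard4 3.09-fold (1.63 ± 0.24, adjusted p = 0.00438). For these genes the T and PT arrays did not overlap, which held for 20 of the 26 genes and adds nothing to the test on the same arrays. Without PT replicate 2 the count was 6 genes. Lss (0.85 ± 0.20, adjusted p = 0.0313) lost its call without any 1 of the 6 arrays (adjusted p from 0.0609 to 0.156) and in the fit of 4 arrays (0.0609), and Cyp51 (1.12 ± 0.24, adjusted p = 0.0217) without any 1 of the 4 Kit arrays (0.0596 to 0.116). Hsd17b7 (1.60 ± 0.33, adjusted p = 0.0176) lost it without T replicate 1 (0.0713) or PT replicate 2 (0.112). Npc2 (1.19 ± 0.26, adjusted p = 0.0256) lost it without T replicate 2 (0.151), PT replicate 1 (0.177) or PT replicate 2 (0.0569).

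Msmo1, Fdft1, Sqle and Idi1, called higher in both lines, were not called between them, unlike Lss and Cyp51. Msmo1 differed by 0.07 ± 0.24 (adjusted p = 0.908), Fdft1 by 0.15 ± 0.20 (adjusted p = 0.727), Sqle by 0.35 ± 0.20 (adjusted p = 0.343) and Idi1 by 0.60 ± 0.21 (adjusted p = 0.131), which does not show that they were equal. Idi1 (adjusted p = 0.0386) and Insig2 (0.85 ± 0.25, adjusted p = 0.0701, then 0.021) passed when probe sets at background were left out of the fit. Insig2 (0.0434) and Mvd (1.04 ± 0.30, adjusted p = 0.0707, then 0.0205) passed with the replicate number as a block.

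**Figure D3:**
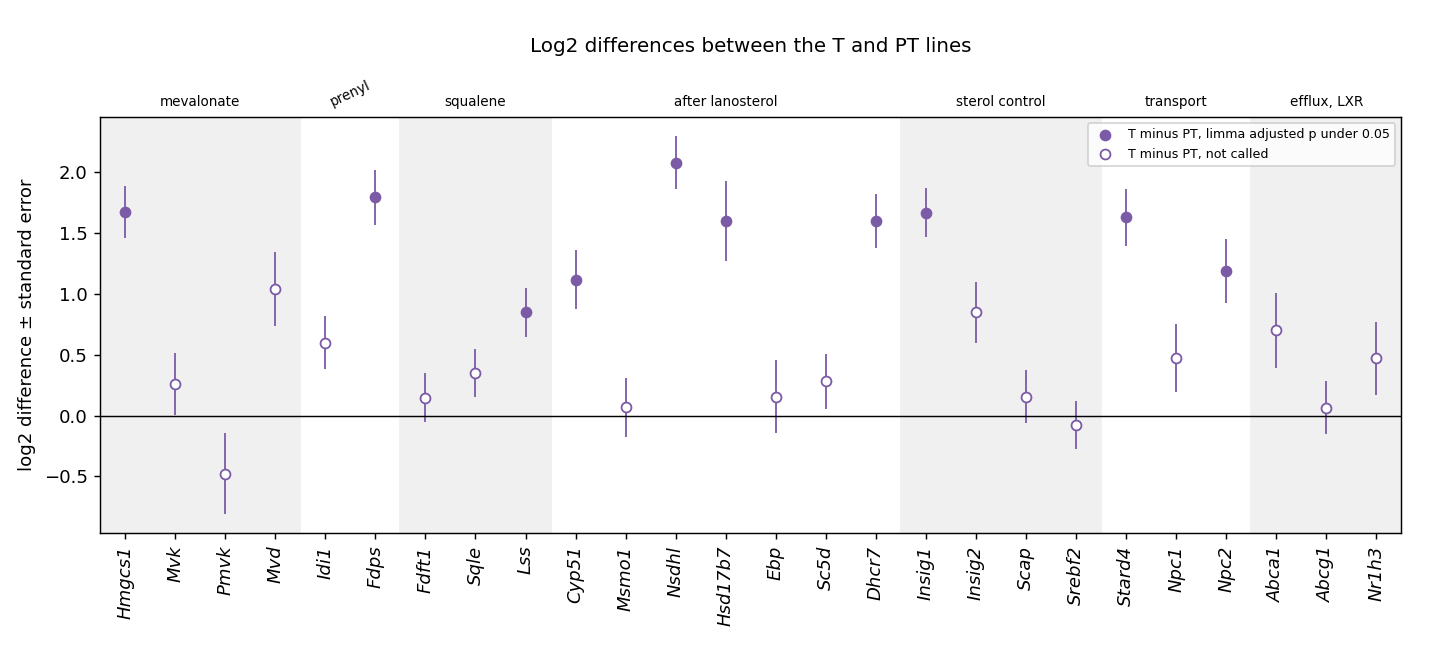
Log2 difference of T from PT for the 26 measured genes in pathway order, with standard errors of the limma fit; filled points passed the test. All 10 filled points lie above 0, from 0.85 for Lss to 2.08 for Nsdhl.

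A wider list of the pathway held 108 genes, of which 96 had a probe set and 29 were at background on all arrays. In T, 22 of the 96 were called higher and 30 lower than in mVec, and in PT 25 higher and 33 lower. These are 22.9% and 31.2% in T, beside 16.9% and 15.5% of all probe sets and 36.6% and 27.4% of those above background. In PT they are 26.0% and 34.4%, beside 17.9% and 17.99%, and 37.2% and 32.0%. The median difference of the 96 was -0.02 in T and -0.11 in PT. The counts of the shorter lists that follow are a description, to be read against the same shares. The wider list includes genes at background, which the shares above background leave out. Every difference given with a standard error below passed the test. Of 17 genes for processing and turnover of SREBP and its partners, 3 were called higher and 4 lower in T, and 4 and 5 in PT. Tmem97, an SREBP target of the endoplasmic reticulum that binds sterols and is known to restrain Npc1, read 9.60 and 10.08 in mVec, 14.72 and 15.16 in T, and 14.57 and 14.81 in PT. The rise was 34.3-fold in T (5.10 ± 0.25) and 28.8-fold in PT (4.85 ± 0.25). Erlin1, a membrane protein that binds cholesterol and limits SREBP activation, rose by 5.04 ± 0.25 in T and 5.24 ± 0.25 in PT, and 1 of its 2 mVec arrays was above background. Rnf145, a sterol-responsive ubiquitin ligase and liver X receptor target, fell by 3.15 ± 0.25 in T and 3.84 ± 0.25 in PT.

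Of 14 genes of uptake and lysosomal release, 3 were called higher and 9 lower in T, and 2 and 8 in PT. Lipa, the acid lipase that frees cholesterol from its esters in the lysosome, read 13.58 and 13.50 in mVec, 10.00 and 10.14 in T, and 7.005 and 6.94 in PT, where it was at background. The fall was 11.03-fold in T (-3.46 ± 0.20) and at least 23.0-fold in PT (-6.57 ± 0.20), and T was at least 2.09-fold above PT (adjusted p = 0.000138). The endocytic adaptor Dab2 fell by 3.44 ± 0.24 in T and by 4.68 ± 0.24 in PT. Scarb1, the receptor for high-density lipoprotein, went the other way, from 9.22 and 8.82 in mVec, where 1 of the 2 arrays was above background. It read 12.35 and 12.29 in T (3.30 ± 0.23) and 12.18 and 12.54 in PT. Lrp8 was also called higher, by 4.04 ± 0.24 in T, with T and mVec at background. In PT it was higher by 5.01 ± 0.24, with 1 of 2 arrays above background. Vldlr was called higher in T (0.77 ± 0.21) and not called in PT. Lrp1, in contrast, fell by 1.81 ± 0.21 in T and by 3.19 ± 0.21 in PT. Mylip, a ubiquitin ligase that degrades lipoprotein receptors and a liver X receptor target, was picked after its values were seen: it read 13.89 and 13.88 in mVec, 10.81 and 10.60 in T, and 10.00 and 10.16 in PT.

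In the list of efflux, storage and liver X receptor targets, 3 of 17 genes were called higher and 7 lower in T, and 4 and 7 in PT. The list medians were -0.17 in T and 0.0037 in PT. The 3 genes named next had the largest differences of the list, and all fell. Whether liver X receptor targets changed as a set was not tested. Smpdl3a, a liver X receptor target, was above background in mVec alone, by at least 17.2-fold over T and 15.2-fold over PT. Pltp, the phospholipid transfer protein and another such target, was 11.6-fold lower in T (-3.54 ± 0.23) and 24.4-fold lower in PT (-4.61 ± 0.23, 1 of 2 PT arrays above background). Apod, a secreted lipocalin, had a mean of 15.32 in mVec and was at background in both Kit lines, with mVec at least 89.7-fold over T and 79.3-fold over PT. Of 20 sterol transfer proteins, 6 were called higher and 7 lower in each line. Stard5, a cholesterol carrier, was 17.2-fold higher in T (4.11 ± 0.20) and 11.2-fold higher in PT (3.49 ± 0.20), while Scp2, the sterol carrier protein of peroxisomes, was at background in both Kit lines and above it in mVec (-2.86 ± 0.29 in T and -3.99 ± 0.29 in PT).

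**Figure D4:**
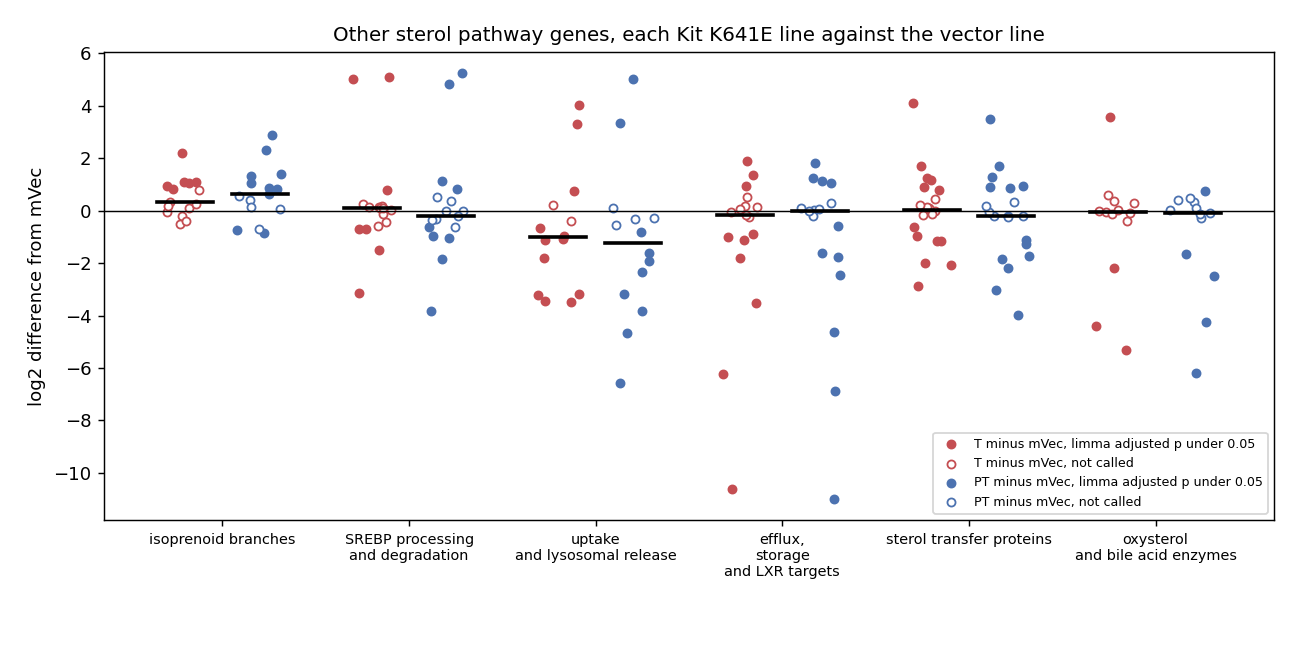
Log2 differences from mVec of 96 other sterol pathway genes in 6 lists, T in red and PT in blue. Each point is a gene, filled where it passed the limma test, with small sideways scatter for legibility, and black bars are medians. The uptake list has the lowest medians, -1.02 in T and -1.23 in PT.

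Of 15 genes in branches that draw on isoprenoids, 6 were called higher and 0 lower in T (40.0% higher, near the 36.6% of probe sets above background). In PT 8 were called higher and 2 lower (53.3% and 13.3%), beside 37.2% and 32.0%. The medians were 0.34 and 0.65. Nus1, a subunit of the enzyme that builds dolichol, rose by 1.10 ± 0.20 in T and 1.39 ± 0.20 in PT (adjusted p = 0.00193 and 0.000367), and Trit1, which puts an isoprenoid on transfer RNA, was at least 1.94-fold higher in T and at least 3.13-fold higher in PT. By limma at an unadjusted p under 0.05, 1 of the 15 were lower in T. Of 13 oxysterol and bile acid enzymes, 1 was called higher and 3 lower in T, and 1 and 4 in PT. Cyp39a1, an oxysterol hydroxylase, was above background in mVec (mean 10.997) and at background in T (5.70) and PT (4.82). Acox2, a peroxisomal oxidase of bile acid intermediates, was above background in T (mean 10.81), at least 3.49-fold over mVec and at least 3.47-fold over PT. Between the Kit lines, 13 of the 96 genes were called higher in T (13.5%, beside 12.3% of probe sets above background) and 2 lower (2.08%, beside 5.68%), Fntb and Lrp8, both at background in T.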

How the data were processed

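Total RNA of each line was labelled with biotin and hybridised to Clariom S mouse arrays, per the labels. The deposited table gives 1 value per probe set and array, read here as log2 from its range, with software, normalization and genome build not given in the sources used here. These deposited log2 values were used unchanged.

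Groups were compared with limma 3.58.1 in R 4.3.3 on 22206 gene probe sets, with all 6 arrays in 1 fit (3 residual degrees of freedom, prior 6.362) and Benjamini-Hochberg adjustment over all probe sets within a comparison. The procedure was tested on simulated data. Negative controls (5222 probe sets per array) set the background limit at their 95th percentile. A lower bound on a fold sets the mean of the brighter line against the mean, over the dimmer line's arrays, of the higher of that limit and the value. Precision is limited by the 2 arrays per group. Alternatives were median centring, quantile normalization (limma), leaving out probe sets at background, variance trends and robust fits, and 4-array fits. Others were a replicate block entered as a fixed term, a minimum difference, other background percentiles and leaving out each array. The package statmod 1.5.0 was loaded with limma. Equal replicate numbers were not treated as pairs (correlations of deviations 0.04 to 0.08, with 2 numbers per group).

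All measured genes of the set were named. Of the wider lists, up to 3 called genes per list and comparison with the largest absolute difference, above background in at least 1 of the groups, could be named. The genes, lists and limit were chosen with earlier results of these data known. Some genes are not reported here.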

Additional observations from a re-analysis of the deposited data

Results flagged for a closer look

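The differences of T and of PT from mVec differed, by the limma test of T minus PT, for 10 of the 26 genes, each higher in T. The log2 differences were 1.67 for Hmgcs1, 1.80 for Fdps, 0.85 for Lss, 1.12 for Cyp51, 2.08 for Nsdhl, 1.60 for Hsd17b7, 1.60 for Dhcr7, 1.67 for Insig1, 1.63 for Stard4 and 1.19 for Npc2. For Hmgcs1, Nsdhl, Hsd17b7 and Dhcr7, PT was called below mVec and T was not called. Hmgcs1, Fdps, Nsdhl, Dhcr7, Insig1 and Stard4 passed in all 14 alternatives that gave them a test.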

How the results depend on the processing

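Of 1077 values recomputed for the 26 genes, 989 kept their direction and their side of the threshold. Over the 14 alternatives with a test, 12 of 17 calls of T against mVec, 14 of 18 of PT against mVec and 6 of 10 of T against PT held throughout. The count of genes called lower in T was 4 with a minimum log2 difference of 1 and ranged from 4 to 6 when arrays were left out in turn; the count of genes higher in T than in PT ranged from 6 to 9. With a replicate block the counts were 10 higher and 7 lower for T, 7 and 11 for PT, and 12 and 0 for T against PT; it ended no call. At the 99th percentile of the controls, 9 genes were above background in T, 6 in PT and 5 in mVec.

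Reversals concerned uncalled genes. With centred arrays, T minus mVec was 0.0023 for Mvk, 0.033 for Hsd17b7 and 0.15 for Scap, and PT minus mVec 0.17 for Mvd and 0.052 for Stard4. With quantile normalization, PT minus mVec was 0.38 for Mvd and 0.0053 for Stard4, and T minus PT -0.0034 for Ebp and -0.16 for Abcg1. Leaving out arrays, T minus mVec ranged from -0.52 to 0.16 for Mvk, -0.57 to 0.27 for Hsd17b7 and -0.17 to 0.10 for Scap. PT minus mVec ranged from -0.31 to 0.27 for Mvd, -0.30 to 0.025 for Stard4 and -0.22 to 0.57 for Nr1h3. T minus PT ranged from -0.078 to 0.61 for Mvk, -1.05 to 0.10 for Pmvk, -0.13 to 0.27 for Msmo1, -0.28 to 0.60 for Ebp, -0.0048 to 0.32 for Scap and -0.14 to 0.28 for Abcg1.

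Averaging a gene's probe sets changed nothing, since each gene has 1, and leaving out probe sets at background left 5 genes untested. Each line is 1 line on 2 arrays, so line and genotype cannot be told apart. A line left with 1 array was assumed to vary like the others.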
